A study of Mus musculus with 22 samples.

Results

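Transcripts of 7 genes, C130093G08Rik, 4833423E24Rik, Abcc12, Fezf1, Reln, Ccdc3 and Rgs7bp, were picked out of the 29367 in the count table because they rose in astrocytes of the optic nerve proper (ONP) between 7 and 30 days after microbead injection, or rose there relative to the optic nerve head (ONH). The 7 genes were chosen on these same counts, with no numeric threshold, so their differences between groups are a description below, and no test of them is read. Only 5 of the 7 were near 0 in the ONP at 7 days. Ccdc3 and Rgs7bp were already detected in every ONP library at that time.

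The ONH is the unmyelinated segment where the axons of retinal ganglion cells leave the eye, and the ONP is the myelinated nerve behind it. Astrocyte messenger RNA was collected by ribotag immunoprecipitation, in which ribosomes carrying an HA tag are pulled down together with the transcripts they hold. All 22 libraries came from eyes injected with microbeads, which block fluid outflow and raise intraocular pressure. Every mouse was homozygous for the tagged Rpl22 allele and carried a constitutive Cre driven by the mouse GFAP promoter (B6J.129(Cg)-Rpl22tm1.1Psam/SjJ crossed to B6.Cg mice with the transgene Tg (GFAP-Cre) 73.12Mvs/J, a genotype called WT in the labels), so any cell that ever switched on that promoter could carry the tag. The mice were 3 to 4 months old, and each library was a pool of 4 animals, 2 of each sex. There were 7 ONH and 7 ONP pools at 30 days and 4 ONH and 4 ONP libraries at 7 days. The study took each ONH and ONP from the same mouse. At 30 days, ONH and ONP libraries of equal number were taken as the same mice, which the labels do not state. Uninjected eyes were not analysed here, so the levels below have no baseline without microbeads. Total counts per library ran from 17583904 to 25197193 in the ONP at 30 days, from 16292489 to 28729105 in the ONP at 7 days, from 18026821 to 24746846 in the ONH at 30 days and from 16819713 to 33307092 in the ONH at 7 days. The astrocyte marker Gfap averaged 18177 counts per 1000000 (CPM) in the ONP and 12903 CPM in the ONH at 30 days, but oligodendrocyte transcripts were also abundant, with Mbp at 24328 CPM in the ONP pools at 30 days.

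The genes have little in common by annotation. Reln encodes reelin, a large secreted glycoprotein best known for guiding neuronal layering in the developing cortex. Reelin binds the lipoprotein receptors Vldlr and Lrp8 (ApoER2), after which the adaptor Dab1 is phosphorylated by the Src-family kinases Fyn and Src. Ccdc3 encodes a secreted coiled-coil protein. Fezf1 encodes a zinc finger repressor that, with its relative Fezf2, patterns the embryonic forebrain and is needed for olfactory axon targeting. Abcc12 belongs to the C family of ATP-binding cassette membrane transporters. Rgs7bp encodes the palmitoylated anchor that holds complexes of an R7-type RGS protein and the G protein subunit Gnb5 at the plasma membrane, where they shorten signalling by Gi and Go proteins. 4833423E24Rik is named Fads2b by RefSeq and belongs to the fatty acid desaturase family, and C130093G08Rik is an uncharacterised transcript annotated as a single exon.

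Fezf1 and C130093G08Rik lie next to each other on chromosome 6 (GRCm38). Fezf1 runs from 23245044 to 23248362 on the minus strand, and C130093G08Rik runs from 23251133 to 23253358 on the plus strand, 2770 bases away. RefSeq holds a longer, predicted Fezf1 model that ends at 23250936, which would leave 196 bases between them. The other 5 genes lie apart. 4833423E24Rik is on chromosome 2 (85483594 to 85519024, minus strand) and Ccdc3 on the same chromosome (5137776 to 5230878, plus strand). Abcc12 is on chromosome 8 (86482260 to 86580686, minus strand), Reln on chromosome 5 (21884454 to 22344702, minus strand) and Rgs7bp on chromosome 13 (104945904 to 105054930, minus strand).

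The upstream sequences of 3 genes that were at 0 in every ONP library at 7 days are shown, because Fezf1 and 4833423E24Rik had the closest relation across pools and Abcc12 followed the astrocyte markers. RefSeq's promoter table (GRCm38.p6) matched 6 of the 7 genes, and C130093G08Rik was not among them. Each sequence is written 5′ to 3′ on the minus strand and is cut at the first GENCODE exon of the gene met in the window. Matches on either strand to the motifs named after the sequences are in capitals. The windows are chr6:23248363-23248514 for Fezf1, inside the predicted longer RefSeq model, chr2:85519025-85519185 for 4833423E24Rik, and chr8:86566608-86566840 for Abcc12, which lies in an intron of the longer Abcc12 transcripts. The Abcc12 window thus precedes a start within the gene, whose own 5′ end is at 86580686, and is not sequence upstream of the whole gene.
Fezf1: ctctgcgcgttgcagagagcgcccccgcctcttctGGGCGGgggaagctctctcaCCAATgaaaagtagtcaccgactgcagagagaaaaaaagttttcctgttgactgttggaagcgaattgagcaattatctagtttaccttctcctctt
4833423E24Rik: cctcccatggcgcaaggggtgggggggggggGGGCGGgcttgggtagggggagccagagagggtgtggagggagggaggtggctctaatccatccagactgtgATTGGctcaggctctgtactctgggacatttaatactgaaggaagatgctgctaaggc
Abcc12: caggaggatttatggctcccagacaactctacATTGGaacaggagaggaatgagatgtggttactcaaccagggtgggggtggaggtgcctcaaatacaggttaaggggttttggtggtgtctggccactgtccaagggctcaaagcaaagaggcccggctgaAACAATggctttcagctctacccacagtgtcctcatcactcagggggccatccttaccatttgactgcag

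Over the 250 bases before each start, CCAAT occurred in 5 of the 6 matched genes and in 33.8% of 32851 promoters of the same length. GGGCGG occurred in 4 of 6 and in 32.7% of all, and ATTGTT in 1 of 6 (Abcc12) and in 9.42% of all. The letters TATAAA were found in none of the 6 windows and in 12.4% of all promoters. The same held for TTGGCA, present in 12.3% of all, and for TAATTA, present in 4.84%. Both strands were searched, and no motif is part of another. These matches are a description of letters and not of binding. Base composition differed widely, from 43.2% G and C for Rgs7bp to 80% for Reln, against a median of 52.4% over all promoters, and Reln held 37 CpG dinucleotides and Abcc12 held 2, against a median of 6.

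Reln went from almost nothing to a readily counted transcript in the ONP. At 7 days the 4 ONP libraries held 1 Reln count in all (0.0411 CPM in library 5, and 0 in libraries 1, 2 and 6). At 30 days the 7 pools measured 9.80, 5.28, 1.40, 6.42, 2.39, 1.24 and 2.56 CPM in order of pool number, with a mean of 4.15 ± 3.16 CPM (SD, n = 7). Every 30-day pool was above every 7-day library, pools 1, 4 and 2 were high and pools 6 and 3 were low. The summed counts were 648 against 1. At 7 days the ONP mean was 0.0103 CPM. That was under a floor of 3 counts per library (0.153 CPM on average), so no fold is given. As in any bulk preparation, more cells that make a transcript and more transcript in each cell cannot be told apart.

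Reln was not absent from the ONH. At 30 days the ONH pools measured 0, 0, 1.26, 0.430, 2.00, 0.724 and 2.00 CPM in order of pool number. At 7 days the ONH libraries were at 0 except library 5, at 3.99 CPM. The ONP pools at 30 days overlapped with the ONH pools, with 5 of 7 above all of them, and the mean was higher in the ONP (4.15 against 0.916 ± 0.858 CPM, log2 difference 2.18 ± 0.79 SE). The fitted 30-day against 7-day difference in the ONH was -0.13 with an SE of 1.53, and it rested on library 5, since the other 3 libraries at 7 days were at 0 and give no fold.

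Ccdc3 was by far the most abundant of the 7 genes per kilobase of exon. It measured 62.0, 49.1, 96.6, 88.5, 43.5, 100.3 and 45.6 CPM in the ONP pools at 30 days, and 9.81, 6.05, 22.3 and 9.86 CPM in the ONP libraries at 7 days. The 30-day and 7-day groups did not overlap, and pools 6, 3 and 4 were high while pools 5, 7 and 2 were low. The rise was 5.63-fold (69.4 ± 25.1 against 12 ± 7.11 CPM, log2 difference 2.49 ± 0.38 SE).

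In the ONH the same gene went the other way. It measured 0.270, 1.73, 2.26, 4.73, 2.32, 1.90 and 0.972 CPM in the 30-day pools, against 9.0, 6.79, 9.81 and 4.21 CPM in the 7-day libraries. All but 1 of the 30-day pools lay below every 7-day library, pool 4 overlapping with the lowest, and the log2 difference was -1.90 ± 0.54 SE. At 7 days ONP and ONH overlapped for Ccdc3 (log2 difference 0.67 ± 0.44 SE), whereas at 30 days every ONP pool was above every ONH pool (5.10 ± 0.44 SE). The change over time in the ONP minus that in the ONH was 4.41 ± 0.65 SE on the log2 scale.

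**Figure D1:**
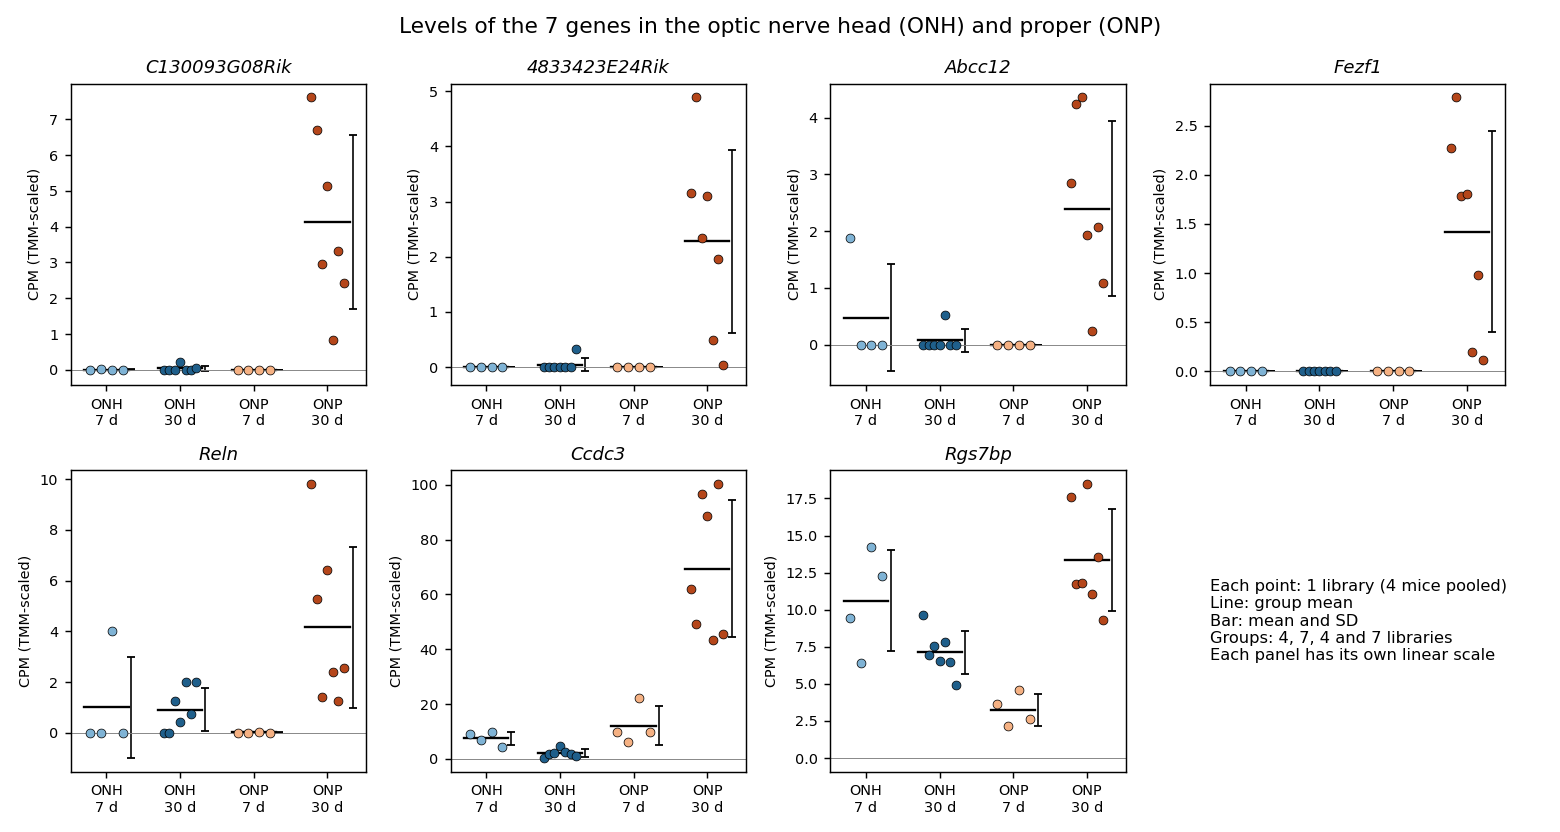
Level of each of the 7 genes in every library, in CPM on a linear axis of its own per panel, by region and day (7 pools at 30 days and 4 libraries at 7 days in each region). Points are libraries, lines are group means and bars are the mean and SD; in every panel the 7 ONP pools at 30 days sit above the 4 ONP libraries at 7 days, and in the Rgs7bp panel the ONP at 7 days is also below the ONH.

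Fezf1 was listed at 0 in all 4 ONP libraries at 7 days and in all 11 ONH libraries. In the ONP at 30 days it measured 2.28, 2.79, 1.79, 1.80, 0.195, 0.984 and 0.12 CPM, which was above 0 in every pool but low in pools 5 and 7, with 4 and 3 counts. Its mean of 1.42 ± 1.02 CPM was at least 9.31-fold higher than in the ONP at 7 days and at least 10.01-fold higher than in the ONH at 30 days, taking 3 counts per library as the floor (0.153 CPM on average in the 7-day ONP). Of the 7 genes, Fezf1 alone had no count in any ONH library.

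Its neighbour C130093G08Rik was also at 0 in all 4 ONP libraries at 7 days. The 7 pools at 30 days measured 7.61, 6.69, 2.96, 5.13, 0.828, 3.31 and 2.44 CPM, again above every 7-day library, with pools 1 and 2 high and pool 5 low. The mean of 4.14 ± 2.43 CPM was at least 27.1-fold higher than at 7 days. In the ONH it was at or under 4 counts in every library (0.215 CPM in pool 4 and 0.0540 CPM in pool 7 at 30 days, 0.0299 CPM in library 3 at 7 days), and all 7 ONP pools were above all 7 ONH pools at 30 days. The ONH mean at 30 days, 0.0384 CPM from 5 counts in all, was under the floor of 3 counts per library, so no fold is given.

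Abcc12 was likewise at 0 in the 4 ONP libraries at 7 days. It measured 2.84, 4.25, 4.36, 1.94, 0.244, 2.07 and 1.08 CPM in the ONP pools at 30 days, so pools 2 and 3 were high and pool 5, with 5 counts, was low. Its mean of 2.40 ± 1.54 CPM was at least 15.7-fold higher than at 7 days. Single ONH libraries held it too, pool 5 at 30 days with 0.521 CPM and library 1 at 7 days with 1.89 CPM, while the other 9 ONH libraries were at 0. At 30 days the regions overlapped through pool 5, and 6 of 7 ONP pools were above all ONH pools (means of 2.40 against 0.0744 CPM). Since pool 5 alone held the ONH counts at 30 days, no fold is given.

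4833423E24Rik, at 0 in the ONP at 7 days, reached 3.15, 4.89, 2.35, 3.09, 0.487, 1.97 and 0.0400 CPM in the ONP pools at 30 days. Pool 7 held a single count and pool 5 held 10. The mean was 2.28 ± 1.66 CPM, at least 14.9-fold higher than at 7 days. In the ONH, 1 pool at 30 days (pool 7, 0.324 CPM) had any counts, and the regions overlapped because the ONP of pool 7 was below that value.

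Rgs7bp rose from a level that was low but measurable in the ONP at 7 days. It measured 3.62, 2.16, 4.56 and 2.62 CPM in the 7-day libraries and 17.6, 11.7, 11.8, 18.5, 11.1, 13.6 and 9.28 CPM in the 30-day pools, without overlap. The rise was 4.03-fold (3.24 ± 1.07 against 13.4 ± 3.45 CPM, log2 difference 2.01 ± 0.27 SE).

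The ONH started from a higher Rgs7bp level. It held 9.43, 6.43, 14.3 and 12.3 CPM in the early libraries and between 4.91 and 9.62 CPM (median 6.95) in the late pools, with a log2 difference over time of -0.60 ± 0.27 SE and overlapping groups. Rgs7bp in the ONP was therefore below the ONH in every library at 7 days (log2 difference -1.72 ± 0.39 SE) and above it on average at 30 days (0.91 ± 0.19 SE, 6 of 7 ONP pools above all ONH pools). The difference of the changes was 2.61 ± 0.37 SE. Among the 7 genes, Rgs7bp was the only one whose ONP level at 7 days lay below every ONH library of that day.

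Per kilobase of merged exon, the ONP levels at 30 days ordered the genes as Ccdc3 (26 CPM per kb), Rgs7bp (1.89), C130093G08Rik (1.86), 4833423E24Rik (1.0), Fezf1 (0.590), Abcc12 (0.360) and Reln (0.175). Only the step from Ccdc3 to Rgs7bp exceeded the SD between pools of the higher gene. Below Ccdc3, each gene was within 1 SD of the next. The spread between pools was smallest for the genes already present at 7 days, with a coefficient of variation of 25.8% for Rgs7bp and 36.1% for Ccdc3. It was between 58.8% (C130093G08Rik) and 76.1% (Reln) for the 5 that were near 0 at that time.

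The calls of the 7 genes in the comparisons between groups restate how they were picked, in the ONP over time and in the interaction of region and day that the other comparisons make up, and nothing is read from them. All 7 genes passed the filter on low counts in the ONP comparison, and edgeR's quasi-likelihood test with Benjamini-Hochberg adjustment over 15491 genes placed all 7 among the higher, as 7.82% of the genes tested were. Over all genes 1211 were higher and 1427 lower, a split that became 1934 and 966 when libraries were scaled to their totals alone. Groups that did not overlap, with the 30-day pools higher, occurred for 6.2% of the genes tested. In the ONH over time 3 of the 7 passed the filter and none was called, where the test called 0% of 15668 genes at the adjusted threshold, 2179 at an unadjusted p under 0.05, and DESeq2 called 450. Between regions at 30 days 5 of 7 were tested and 5 were higher in the ONP (20% of genes were). C130093G08Rik, Ccdc3 and Fezf1 did not overlap between regions (7.08% of genes tested had every ONP pool higher). Fezf1, with 4 and 3 counts in ONP pools 5 and 7, did not pass the filter on low counts and was not tested. At 7 days 2 were tested and 1, Rgs7bp, was lower in the ONP (6.34% were called lower, 13.2% in either direction, and 9.9% had every ONP library below every ONH library). In the region by day interaction, which called 0.543% of 16748 genes, and 0.149% in the positive direction, the calls among the 7 were Ccdc3 and Rgs7bp. With libraries scaled to their totals alone, the split of calls over all genes moved from 1004 higher and 936 lower to 840 and 1392 between regions at 7 days, and from 25 and 66 to 37 and 32 in the interaction.

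Transcripts near 0 in the ONP at 7 days and present at 30 days were few. Of 7998 genes with at most 1 count over the 4 ONP libraries at 7 days, 52 were above 3 counts in 5 or more of the 7 pools at 30 days, and C130093G08Rik, 4833423E24Rik, Abcc12, Fezf1 and Reln were among them. Above 3 counts in all 7 pools were 8 genes, namely A330076C08Rik, Abcc12, C130093G08Rik, Cdh24, Gcnt4, Gm38562, Reln and Rgn. Counted the same way in the ONH, 7424 genes had at most 1 count at 7 days, of which 23 were above 3 counts in 5 or more pools at 30 days and 1 in all 7.

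The rule did not use how the genes vary between pools of the same group, so this could be tested. Over the 7 ONP pools at 30 days, 20 of the 21 pairs of genes had a positive Pearson's r of log2 CPM, with a median of 0.593. The exception was Reln with Ccdc3 (r = -0.29, exact permutation p = 0.505, adjusted 0.556). The 21 pairs share the same 7 libraries and 7 genes and are not independent of each other. Their count was not set against other genes of the same pools, so nothing particular to the 7 is read from it. Fezf1 had the highest median r with the other 6 genes (0.738) and Reln the lowest (0.388).

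One pair passed the correction for 21 pairs. 4833423E24Rik and Fezf1, on different chromosomes, had r = 0.96 (two-sided exact permutation p = 0.000198, the smallest that 7 pools allow, adjusted p = 0.00417) and ranked the pools identically (Spearman's rho = 1, exact permutation p = 0.000397, adjusted p = 0.00833). Without pools 7 and 5, the 2 farthest from the median of 4833423E24Rik, r was 0.895. With each pool left out in turn it stayed between 0.950 and 0.984.

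The next pairs did not pass the correction. Fezf1 and its genome neighbour C130093G08Rik had r = 0.82 (exact permutation p = 0.0141, adjusted 0.11), rho = 0.893 (p = 0.0123, adjusted 0.0861), and r = 0.767 without pools 5 and 1. Abcc12 and Fezf1 had r = 0.84 (exact permutation p = 0.0157, adjusted 0.11), rho = 0.679 (p = 0.11, adjusted 0.3), and r = 0.902 without pools 5 and 3. C130093G08Rik and Abcc12 had r = 0.84 (exact permutation p = 0.0242, adjusted 0.127), rho = 0.571 (p = 0.2, adjusted 0.3), and fell to r = 0.493 without pools 5 and 1.

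Of the 20 positive pairs, 7 turned negative once the 2 pools farthest from the median of the first gene were set aside. The first gene is the one named earlier in the opening list, so pairs lost different pools and the count depends on that order. Each of these 7 pairs held Ccdc3 or Rgs7bp. With 4833423E24Rik, Ccdc3 had r = 0.51 over 7 pools and -0.913 without pools 7 and 5, and with Fezf1 it had r = 0.51 and -0.841. The positive values of these pairs thus rested on those pools. Rgs7bp with Fezf1 went from r = 0.66 to -0.02, and with 4833423E24Rik from 0.68 to -0.03, in the same way. None of these 4 relations passed the test over all 7 pools (exact permutation p from 0.0819 to 0.279, adjusted p from 0.277 to 0.39, rho from 0.25 to 0.571). The other 3 pairs that turned negative were Reln with Rgs7bp (r = 0.59, and -0.388 without pools 1 and 4), C130093G08Rik with Ccdc3 (0.31, and -0.114 without pools 5 and 1) and Abcc12 with Ccdc3 (0.52, and -0.02 without pools 5 and 3), with an exact permutation p from 0.166 to 0.529, adjusted p from 0.318 to 0.556 and rho from 0.357 to 0.571 over 7 pools. Rgs7bp had r = 0.60 with C130093G08Rik, and 0.511 without pools 5 and 1. With Abcc12 it had r = 0.32, and 0.338 without pools 5 and 3. Pool 7 was kept in both, unlike in the pairs with Fezf1 and 4833423E24Rik, so these values are not set against those. Neither relation passed over all 7 pools (exact permutation p = 0.156 and 0.498, adjusted p = 0.318 and 0.556, rho = 0.679 and 0.321).

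**Figure D2:**
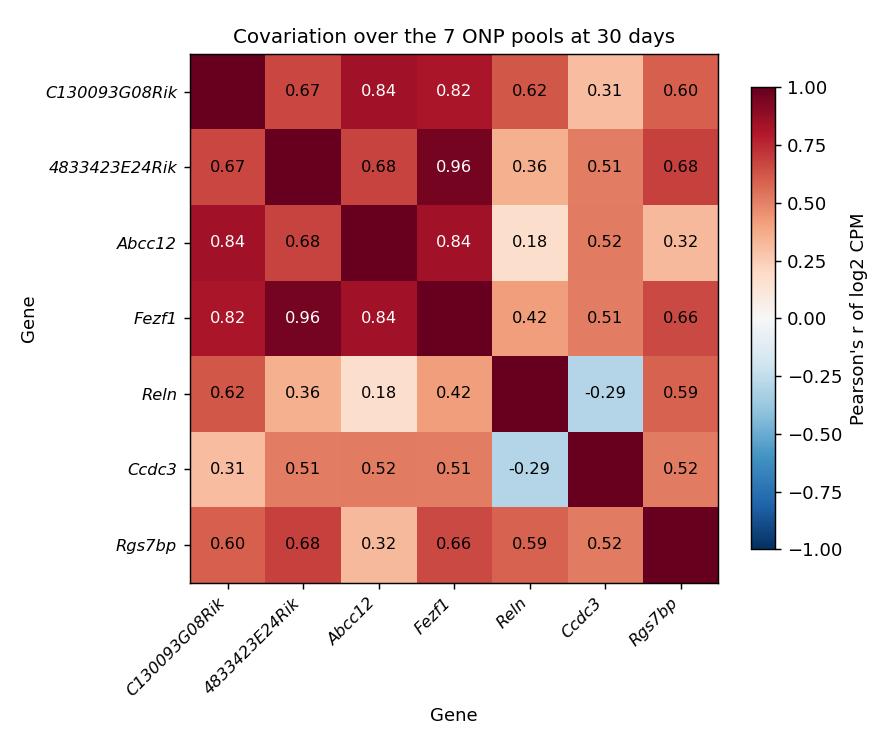
Pearson's r of log2 CPM between the 7 genes over the 7 ONP pools at 30 days, 1 square per pair, coloured from -1 (blue) to 1 (red). The pairs of Fezf1 with C130093G08Rik, Abcc12 and 4833423E24Rik, and of C130093G08Rik with Abcc12, at 0.82 to 0.96, are the deepest, and Reln with Ccdc3 (-0.29) is the only pair below 0.

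Pools 5 and 7 were low for most of the genes, and they also stood apart in their cell type markers. Each of these pools was among the 2 lowest for 6 of the 7 genes, Reln being the exception. The 8 astrocyte markers, led by Gfap, summed to 25269, 28676, 30144, 21151, 13808, 25615 and 19058 CPM in pools 1 to 7. The 6 oligodendrocyte markers, led by Mbp, summed to 42179, 36528, 24886, 64905, 81736, 52030 and 56152 CPM, so pool 5 was lowest for the first list and highest for the second.

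The microglial and endothelial markers were also highest in these pools. The 6 microglial markers, led by Csf1r, summed to 220, 169, 136, 608, 1841, 147 and 1819 CPM and the 5 endothelial markers, led by Flt1, to 11.6, 12.4, 8.43, 28.3, 78.8, 8.9 and 38.3 CPM. The 5 mural markers, led by Kcnj8, did not set them apart, at 65.2 and 63.5 CPM in pools 5 and 7 and between 45.7 and 73.7 CPM in all pools. No marker of these 5 lists was at 0 in the group. In the ONP at 7 days the sums were 13387 to 19676 CPM for astrocyte, 79836 to 104696 for oligodendrocyte, 860 to 1419 for microglial, 83.2 to 133.9 for endothelial and 79.3 to 106 for mural markers. Between 7 and 30 days in the ONP, edgeR at an adjusted p under 0.05 called 5 of 6 oligodendrocyte, 3 of 5 endothelial and 2 of 4 tested mural markers lower, 1 of 8 astrocyte markers higher and no microglial marker, with median log2 differences of -0.90, -1.89, -0.72, 0.28 and -0.60 against -0.01 over all genes. Of all genes tested, 7.82% were called higher and 9.21% lower.

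These markers moved with time in the same comparison as the 7 genes, and their part in the rise was not tested. Pool 5 at 30 days had astrocyte and oligodendrocyte sums within the range of the 7-day libraries, a microglial sum above it and an endothelial sum just below it. In that pool C130093G08Rik (17 counts), 4833423E24Rik (10), Abcc12 (5), Fezf1 (4), Reln (2.39 CPM), Ccdc3 (43.5 CPM) and Rgs7bp (11.1 CPM) were each above all 4 ONP libraries at 7 days. The genes were picked for that rise, and some of these values are a few counts in 1 pool, so nothing about the markers is read from this. When each library was scaled to its astrocyte markers, which was done after seeing the data, the mean log2 difference between 30 and 7 days in the ONP went from 2.62 to 2.20 for Ccdc3 and from 2.06 to 1.65 for Rgs7bp, and all 7 pools remained above all 7-day libraries for both. With the same scaling, the difference between ONP and ONH at 30 days went from 5.40 to 5.11 for Ccdc3, with all 7 ONP pools above all ONH pools, and from 0.89 to 0.60 for Rgs7bp, with 3 of 7 ONP pools above all ONH pools. The scaled values describe differences on which the genes were picked and are no test of the markers' part.

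**Figure D3:**
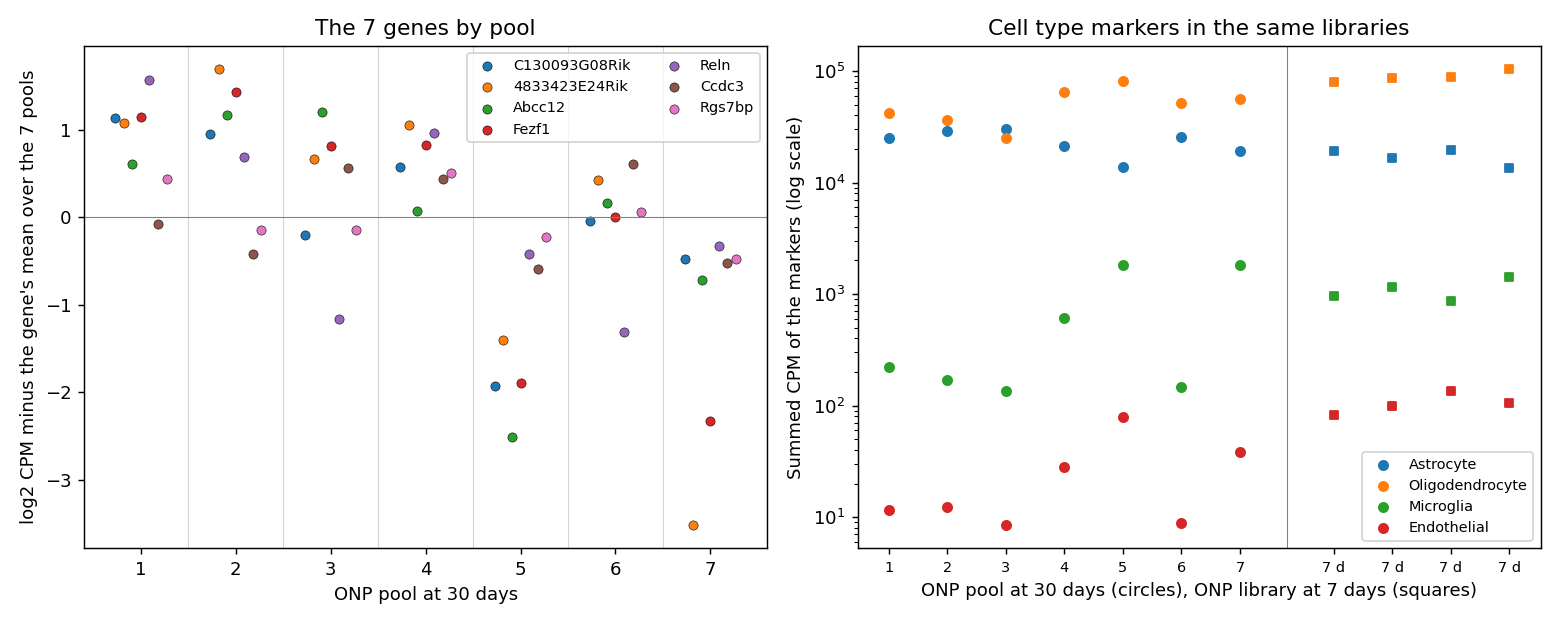
Left, log2 CPM of each of the 7 genes in ONP pools 1 to 7 at 30 days, minus the gene's own mean over the 7 pools. Right, summed CPM of astrocyte, oligodendrocyte, microglial and endothelial markers (log axis) in the same pools (circles) and in the 4 ONP libraries at 7 days (squares); pools 5 and 7 are below the mean on the left for all 7 genes, though for Reln pools 6 and 3 are lower, and have microglial sums of 1841 and 1819 CPM on the right.

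Each gene was also compared with 15 marker lists over the 7 pools, which gave 105 relations, of which 12 had an exact permutation p under 0.05 and 2 passed the correction. Abcc12 rose with the mean log2 CPM of the astrocyte list (r = 0.96, exact permutation p = 0.000397, adjusted p = 0.0208, rho = 0.964 with an adjusted p of 0.146, and r = 0.918 without pools 5 and 2). Abcc12 ran opposite to the mean log2 CPM of the photoreceptor and retina list (r = -0.999, exact permutation p = 0.000198, adjusted p = 0.0208, rho = -1 with an adjusted p of 0.0417, and r = -0.997 without pools 5 and 3). Taken singly, Sag and Pde6b of the retina list had r = -0.977 and -0.88 with Abcc12, and both were highest in pool 5. Rlbp1, a retinoid-binding protein of Müller glia and the most abundant gene of the list at 73.5 to 112 CPM, had r = -0.10. With each pool left out in turn, no relation in this set passed the correction (smallest adjusted p = 0.0729, exact permutation). The smallest exact permutation p of 6 pools, 0.00139, becomes 0.146 over 105 relations where 1 relation has it and 0.0729 where 2 do, so this loss says nothing of stability.

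The other relations did not pass. Reln had r = 0.88 with the surface epithelium list (exact permutation p = 0.00278, adjusted p = 0.0972, rho = 0.893 with an adjusted p of 0.323, r = 0.807 without pools 1 and 4), and pool 1, the highest for Reln, held 38.7 CPM of its 5 keratins against a median of 0.920 CPM. In the ONP at 7 days that list summed to 8.59 to 71.7 CPM, led by Krt15 as at 30 days, and its part in the Reln level was not tested. Abcc12 had r = -0.87 with the microglial list (exact permutation p = 0.00377, adjusted p = 0.099, rho = -0.786 with an adjusted p of 0.388, r = -0.567 without pools 5 and 7). Fezf1 and 4833423E24Rik had r = -0.84 and -0.79 with that list over 7 pools (exact permutation p = 0.0298 and 0.0353, adjusted p = 0.312 and 0.337, rho = -0.393 for both) and 0.153 and 0.213 without pools 5 and 7, so those relations rested on the 2 pools.

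Markers of neurons in which Reln and Fezf1 are well known were also measured in the ONP. Reln is a classical product of Cajal-Retzius neurons. The 5 measured markers of that type (led by Calb2) summed to 3.07 to 9.69 CPM in the ONP at 30 days. At 7 days they summed to 3.63 to 11.1 CPM, with Trp73 at 0 in all 7-day libraries. Reln itself measured 1.24 to 9.80 CPM at 30 days. Its r with that list was 0.49 (exact permutation p = 0.273, adjusted p = 0.624), and 0.0984 without pools 2 and 6. General neuronal markers, 8 genes led by Tubb3, had a median sum of 111 CPM in the late pools, below the 219 CPM of the 7-day libraries, and of the 5 tested none was called in either direction. Reln had r = 0.63 with these markers (exact permutation p = 0.132, adjusted p = 0.479), and 0.829 without pools 4 and 7. The part of neither list in the Reln level was tested. Hypothalamic neuropeptide and identity genes, relevant to Fezf1, had a median sum of 0.341 CPM in the 30-day pools (highest 0.831 CPM, led by Agrp), above the 0.0318 CPM of the 7-day libraries (highest 0.225 CPM, with Avp, Oxt, Pmch and Sim1 at 0 in all). Fezf1 had r = 0.67 with that list over the 7 pools (exact permutation p = 0.0766, adjusted p = 0.447, rho = 0.714 with an adjusted p of 0.548, r = 0.502 without pools 1 and 2), and the part of these cells in its level was not tested.

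Across regions of the same pool number, the 3 genes with enough ONH counts showed no relation that passed the correction. Reln in the ONH and ONP of the same pool had r = -0.75 (exact permutation p = 0.0595, adjusted p = 0.179, rho = -0.613, p = 0.155, adjusted 0.464), and r = -0.385 without pools 1 and 2. Rgs7bp had r = 0.52 (exact permutation p = 0.228, adjusted p = 0.343, rho = 0.214, p = 0.662, adjusted 0.783), which turned to -0.733 without pools 7 and 1. Ccdc3 had r = 0.34 (exact permutation p = 0.506, adjusted p = 0.506, rho = 0.143, p = 0.783, adjusted 0.783), and r = 0.399 without pools 1 and 4.

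**Figure D4:**
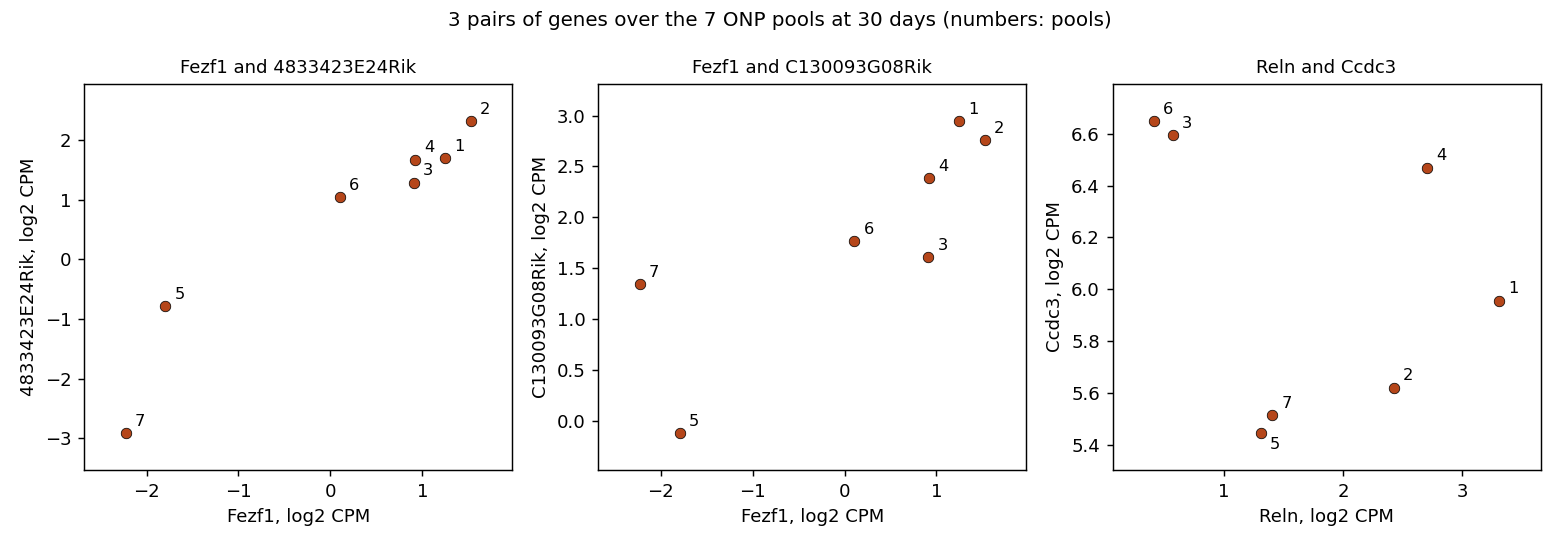
Log2 CPM of 3 pairs of genes over the 7 ONP pools at 30 days, each point labelled with its pool number. Fezf1 against 4833423E24Rik (r = 0.96) and Fezf1 against C130093G08Rik (r = 0.82) rise together, while for Reln against Ccdc3 (r = -0.29) pools 6 and 3, high for Ccdc3, are the lowest for Reln.

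The partners of reelin were measured in the ONP throughout. The receptors Vldlr and Lrp8 and the adaptor Dab1 were at 92.6 ± 21.7, 36.3 ± 14.5 and 89.2 ± 20.9 CPM at 30 days, against 128.5 ± 11, 28.6 ± 11.1 and 63.0 ± 7.92 CPM at 7 days (edgeR adjusted p = 0.0598, 0.515 and 0.0943). Of 19 reelin pathway genes tested over time, 2 fell, the integrin subunit Itgb1 (log2 difference -0.67, edgeR adjusted p = 0.00165) and Plat, a protease that cleaves reelin (-0.61, adjusted p = 0.0248), and 1 rose, the adaptor Nck2 (0.61, adjusted p = 0.0315). The median was -0.16 against -0.01 over all genes, and 17% of all genes were called. The Itgb1 call was kept with each library left out, whereas that of Plat was lost without any of the 7-day libraries 1, 5 and 6 (adjusted p up to 0.084) and that of Nck2 without any of pools 3, 4 and 6 or 7-day libraries 1, 2 and 6 (up to 0.0911).

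At 30 days the ONP held more of the reelin receptor Vldlr than the ONH (log2 difference 0.49, edgeR adjusted p = 0.0132), more of the kinases Fyn (1.32, adjusted p = 0.00013) and Yes1 (0.74, adjusted p = 0.00563), and less Dab1 (-0.73, adjusted p = 0.00266). Also lower were Rapgef1, Cfl1 and Itga3, so that 3 of 19 were higher and 4 lower where 41.8% of all genes were called. The Cfl1 call was lost without any of ONH pools 1, 6 and 7 or ONP pools 1, 3, 4 and 6 (edgeR adjusted p up to 0.0819). Vldlr was higher in the ONP at 7 days too (1.06, edgeR adjusted p = 0.00248), when Reln itself had 1 count there. Oligodendrocyte markers also moved with region, with a median sum at 30 days of 52030 CPM in the ONP and 18100 CPM in the ONH. Their part in the regional differences of the reelin genes was not tested.

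No gene of the complex that Rgs7bp anchors was called higher with it. Gnb5, the obligate partner of R7 RGS proteins, averaged 88.7 CPM in the late and 70.0 CPM in the early ONP libraries (edgeR adjusted p = 0.0917), and Rgs7 averaged 5.83 and 5.78. Gpr158, an orphan receptor that also binds R7 complexes, averaged 1.16 and 0.389 (edgeR adjusted p = 0.153). Of 12 genes of the complex and its G proteins tested, none was called higher and 1 was called lower, where 17% of all genes were called. The latter was Gnao1, the alpha subunit of Go (log2 difference -0.58, edgeR adjusted p = 0.00804). Without regard to calls, 9 of the 12 had a log2 difference above 0 and 3 below. Their median was 0.20 against -0.01 over all genes. Between regions at 30 days, where 41.8% of all genes were called, Gnao1 (0.74), Gnai1 (1.74) and Gnaz (0.60) were higher in the ONP. Rgs6 (-1.44) and Rgs9bp, the sister anchor of Rgs7bp, were lower. Each of these calls had an edgeR adjusted p of 0.0212 or below. Rgs9bp averaged 0.101 ± 0.188 CPM in the ONP and 4.26 ± 7.04 CPM in the ONH, so it varied widely between ONH pools. The Gnaz call was lost without ONP pool 6 (adjusted p = 0.0503). Markers of the oligodendrocyte lineage moved with region in the same libraries, as did retinal markers, whose sums are given below. Of 6 oligodendrocyte markers, led by Mbp, 5 were higher in the ONP at 30 days (edgeR adjusted p under 0.05), with a median sum of 52030 CPM in the ONP and 18100 CPM in the ONH. Of 4 oligodendrocyte precursor markers 3 were higher, with a median sum of 389 CPM, led by Gpr17, in the ONP and 118 CPM, led by Pdgfra, in the ONH. No gene of either list was at 0 in either group, and their part in these regional differences was not tested.

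Of the other transporters of the Abcc12 family, 7 were tested in the ONP over time and 2 were called, where 17% of all genes were. Abcc5 rose by a log2 difference of 0.53 (edgeR adjusted p = 0.0201, lost without 7-day library 2 or 6, up to 0.0575) and Abcc1 fell by 0.49 on the log2 scale (adjusted p = 0.0181, lost without 7-day library 5 or 6, up to 0.0727). Neither went from near 0 as Abcc12 did.

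Among other forebrain and optic transcription factors, few were called over time in the ONP. Fezf2, its closest relative, averaged 8.96 ± 2.09 CPM late and 6.07 ± 1.55 CPM early in the ONP (log2 difference 0.54, edgeR adjusted p = 0.136), and 7.18 and 5.58 CPM in the ONH, where Fezf1 was at 0. Hes5, which Fezf1 and Fezf2 are known to regulate in the embryo, was at 0.701 and 0.212 CPM (edgeR adjusted p = 0.0738), and Neurog2 and Tbr1 were at 0 in every ONP library. Of 12 factors tested over time in the ONP, 8 had a log2 difference above 0 and 4 below. Their median was 0.61 against -0.01 over all genes. Only 1 was called higher (7.82% of all genes were), Lhx2 (18.7 ± 4.54 against 11.5 ± 2.06 CPM, log2 difference 0.68, edgeR adjusted p = 0.0393). That call was lost without any of 7 single libraries (pools 1, 3, 4 and 6 and 7-day libraries 2, 5 and 6, adjusted p up to 0.103). Between regions at 30 days, when Fezf1 was higher in the ONP, 7 of the 12 factors were lower there (21.8% of all genes were), among them Vax2 (-2.95), Rax (-2.57), Pax2 (-1.70) and Six6 (-1.38), and 1 was higher (20% of all genes were), Nkx2-2 (1.43, edgeR adjusted p = 0.00273). The lower call of Lhx2 (-0.45, edgeR adjusted p = 0.0387) was lost without any of ONH pools 1, 3, 4 and 6 or ONP pools 1, 2, 5 and 7 (up to 0.0977). Nkx2-2 is also a factor of the oligodendrocyte lineage, whose markers were higher in the ONP as given above. Retinal markers moved with region in the same libraries, with all 6 of the photoreceptor and retina list and all 4 of the pigment epithelium list lower in the ONP at 30 days (edgeR adjusted p under 0.05). Their median sums were 84.0 CPM in the ONP and 461 CPM in the ONH for the first list, led by Rlbp1, and 2.01 and 99.2 CPM for the second, led by Pmel, with no gene at 0 in either group, and their part in the regional differences was not tested.

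Of 13 genes beside the 7 in the genome that were tested over time in the ONP, 1 was called, where 17% of all genes were. On the outer sides of the Fezf1 and C130093G08Rik pair, Cadps2 had a log2 difference of -0.20 (edgeR adjusted p = 0.58) and Aass of 0.90 (12.1 ± 7.23 against 6.36 ± 2.45 CPM, adjusted p = 0.199). Without pools 5 and 7 Aass was past the threshold (1.24, adjusted p = 0.0327). Gm13716, a noncoding gene 284918 bases from 4833423E24Rik, was the one called, at 1.56 ± 0.88 CPM at 30 days with 3 counts in all at 7 days (edgeR adjusted p = 0.00733). Gm26776 lies over Ccdc3 on the opposite strand, with 1.04 ± 0.53 against 0.198 ± 0.23 CPM (adjusted p = 0.0547). It shares 1845 of its 1872 exonic bases with Ccdc3, and the libraries kept no strand information, so reads from those bases cannot be told apart by strand.

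The genes whose pattern over the 22 libraries was most like the mean pattern of the 7, by Pearson's r of log2 CPM over 16741 genes, were Mroh5 (0.925), A330076C08Rik (0.897), Alox8 (0.889), Gm13716 (0.876), Cck (0.874), Maob (0.874), Nt5dc2 (0.868), Atp1b1 (0.864), Myoc (0.862) and Blcap (0.861). Myoc, which encodes the secreted glycoprotein myocilin, averaged 0.366 CPM in the 7-day ONP libraries and 18.2 CPM in the 30-day pools. The lipoxygenase Alox8 went from 0.607 to 8.0 CPM, the neuropeptide gene Cck from 2.17 to 22.2 CPM, and Maob, the monoamine oxidase of astrocytes, from 15.7 to 51.7 CPM. Over the 7 ONP pools at 30 days alone, the closest were Zfp866 (0.986), Dtwd2 (0.984) and Atp5a1 (0.976), and no gene was among the 10 closest on both measures. These correlations are descriptive, since the libraries share regions, days and depth.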

How the data were processed

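Per the labels and the study's methods, poly(A) RNA bound to tagged ribosomes was amplified with a Smart-Seq HT kit, which does not mark strand. The authors aligned reads with STAR 2.6.1d to mm10, quantified them with Salmon 0.14.2 on Ensembl 94 and used DESeq2 1.34.0 (per the submitters' processing notes). They deposited estimated counts per gene, which were whole numbers, and log2-scale variance-stabilised values, the latter used here only as an alternative for the correlations. Depth is given in the report as the range of library totals in each group and limits genes of a few counts. Coordinates are GRCm38, from GENCODE and RefSeq.

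Counts were tested with edgeR 4.0.16 (filterByExpr, TMM, quasi-likelihood, Benjamini-Hochberg over all genes tested) in separate fits for each pair of groups, and in 1 fit of the 4 groups for the interaction. CPM used TMM-scaled library sizes, and log2 CPM a prior count of 2. Correlations used exact permutations of all 5040 pairings. Where 2 pools were left out, they were the farthest from the median of 1 side of the relation. That side was the gene listed first, the marker list or the ONH level. The scripts were tested on simulated data. Column names of the 7-day libraries gave region, day and a library number but not the deposited sample, so they were not paired. At 30 days, ONH and ONP libraries of the same number were taken to be from the same mice. The deviations of same-numbered libraries correlated at 0.0767 to 0.471, against a median of -0.0869 for differently numbered pairs. Replicates are pools of separate mice.

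The genes named are the 7, the pathway and marker lists (all counted, with values for partners and for those past the threshold), annotated neighbours and the 10 genes most alike in pattern. The 7 genes and the lists were chosen with earlier results of these data known. Alternatives were DESeq2 1.42.0, other scalings and filters, the 4 groups in 1 fit, a replicate block, leaving out each library, and, added after seeing the data, leaving out ONP pools 5 and 7 and scaling to astrocyte markers.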

Additional observations from a re-analysis of the deposited data

Results flagged for a closer look

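Single ONH libraries stood apart from the rest of their group for genes otherwise at or near 0 there. C130093G08Rik was at 0.215 CPM in ONH pool 4 at 30 days, 4833423E24Rik at 0.324 CPM in ONH pool 7 and Abcc12 at 0.521 CPM in ONH pool 5. At 7 days, Abcc12 was at 1.89 CPM in ONH library 1 and Reln at 3.99 CPM in ONH library 5. These were 5 of 19 sets of libraries examined. Sets that are mostly at 0 are flagged with a few counts in 1 library, so the number flagged is not read against chance.

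The change over time differed between ONP and ONH for Rgs7bp, by 2.61 on the log2 scale, and for Ccdc3, by 4.41. Both genes were chosen on that difference, and no test of it is read.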

How the results depend on the processing

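Over the alternatives, the log2 difference in the ONP over time ran from 2.28 to 2.98 for Ccdc3 and from 1.86 to 2.22 for Rgs7bp. Among the fitted differences of the 7 genes, the sign changed only for Reln in the ONH over time, which rested on 1 library. Counts of genes called depended on the fit. In 1 fit of the 4 groups, the ONP over time had 1189 calls in place of 2638, the ONH over time 292 in place of 0 and the regions at 7 days 3785 in place of 1940. DESeq2 gave 450 calls for the ONH over time, 3175 for the regions at 7 days and 409 for the interaction, where edgeR gave 91, and without a low-count filter edgeR gave 2 for the ONH over time and 50 for the interaction. With each library left out in turn, the calls ran from 1439 (without 7-day library 6) to 3214 for the ONP over time, from 0 to 167 for the ONH over time, from 5671 to 6416 for the regions at 30 days, from 1102 to 2379 at 7 days and from 22 to 318 for the interaction. Without ONP pools 5 and 7 the interaction had 166 calls, and 0 pairs and 0 marker relations passed the correction in place of 1 and 2; the smallest exact p is 0.00833 with 5 pools. Leaving out 1 pool gave 0 marker relations, where the smallest exact p, 0.00139, does not pass over 105 relations unless more than 2 of them share it. The cause of these shifts was otherwise not tested. Scaling to library size alone moved the median log2 difference of all genes from -0.01 to 0.11 for the ONP over time, from -0.07 to -0.18 at 7 days and from 0.01 to 0.16 for the interaction. The replicate block at 30 days gave 6717 calls against 6322, and among the listed genes only Abcc4, higher in the ONP by 0.47 (adjusted p = 0.0442), lost its call (0.06 with the replicate block).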
